A study of Mus musculus with 4 samples.

Results

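Capillary endothelial cells of mouse subcutaneous fat are described here from 4 single-cell RNA libraries. A barcode, which stands for 1 droplet and nominally 1 cell, was taken as a capillary endothelial cell by a rule on its own counts. It needed at least 500 UMIs (unique molecular identifiers, each counting 1 captured RNA molecule), at least 300 genes and at most 10% mitochondrial UMIs. It had to hold no UMI of the leukocyte gene Ptprc or of the lymphatic genes Prox1 and Mmrn1, under 0.2% of its UMIs from the stromal gene Dcn, and at most 1 UMI of the large vessel genes Vwf, Ackr1 and Selp together. It also had to hold at least 3 UMIs of the endothelial genes Cdh5, Pecam1 and Cldn5 together and at least 3 of the capillary genes Car4, Btnl9 and Gpihbp1 together. The members were thus chosen by measured counts, and the rule found 2947 of 25234 barcodes.

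Capillary endothelial cells form the wall of the smallest blood vessels, where the tissue exchanges nutrients with blood. In fat they hold lipoprotein lipase on their luminal face through Gpihbp1, take up the fatty acids that it releases through Cd36, and carry them across the cell on Fabp4 and Fabp5, a programme driven in part by the receptor Pparg. When a vessel sprouts, its leading (tip) cells express genes such as Apln, Esm1 and Angpt2, and the cells behind them divide and lay down basement membrane.

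The mice were female and differed in Cth, the gene of cystathionine gamma-lyase, which makes cysteine from cystathionine: Cth+/+ mice have the gene and Cth-/- mice lack it. Each genotype was fed a control diet or a diet without cystine for 4 days, which gave 4 groups of 1 library each. Ages, the targeted allele and the number of animals behind a library are not stated in the labels, which call the diet both cysteine free and cystine free. Subcutaneous depots were pooled after removal of the lymph nodes and digested, and the cells were run on the droplet-based 3' platform of 10x Genomics. Every value below is a value of 1 library, no difference between groups was tested, and the intervals are 95% intervals of counting error only. Sets of 4 values list the Cth+/+ libraries before the Cth-/- ones, and within a genotype the control diet before the cystine-free diet.

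The libraries held 15948807 to 30944977 UMIs in all. The capillary barcodes numbered 889, 909, 336 and 813 and held 2633398, 4212774, 929822 and 2387797 UMIs, with medians of 2364, 3655, 2456 and 2290 UMIs per barcode. The Cth-/- control library therefore gives the least precise values, and the Cth+/+ cystine-free library was the deepest. Between libraries 40 to 69 barcode sequences were shared over all barcodes and at most 1 over capillary barcodes. Scrublet, which looks for droplets with 2 cells, called 5, 8, 4 and 4 capillary barcodes, and these were left in. Cth itself gave 1, 1, 0 and 0 UMIs in capillary barcodes, so these cells are too shallow to check the genotype: 3 UMIs would stand at 3.23 CPM (UMIs per 1000000 UMIs) in the Cth-/- control library, above the 0.380 CPM of Cth+/+ control.

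The label was checked against the marker genes. Gpihbp1 was found in 99.4%, 99.9%, 98.8% and 98.9% of the capillary barcodes, Car4 in 58.7% to 73.3% and Btnl9 in 62.1% to 72.9%. Cldn5, a tight junction protein, stood at 2522, 2399, 2349.9 and 2784 CPM and Cdh5, the endothelial cadherin, at 1498, 1319.6, 1341 and 1162 CPM. These 5 genes chose the barcodes, so their levels are a description. Of the 10 general endothelial markers (the rule gene Pecam1 with Tie1, Tek, Kdr, Emcn, Egfl7, Esam, Cd93, Ramp2 and Eng) 0 were at 0 in any library, and they summed to 6365, 6218, 5971 and 4984 CPM, against 339 to 409 CPM in stromal barcodes. The rule's threshold of 3 capillary UMIs had 101, 37, 38 and 46 barcodes exactly on it and 78, 34, 38 and 29 just outside it, with 2 UMIs. A fixed number of UMIs is easier to reach in a deeper library.

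**Figure D1:**
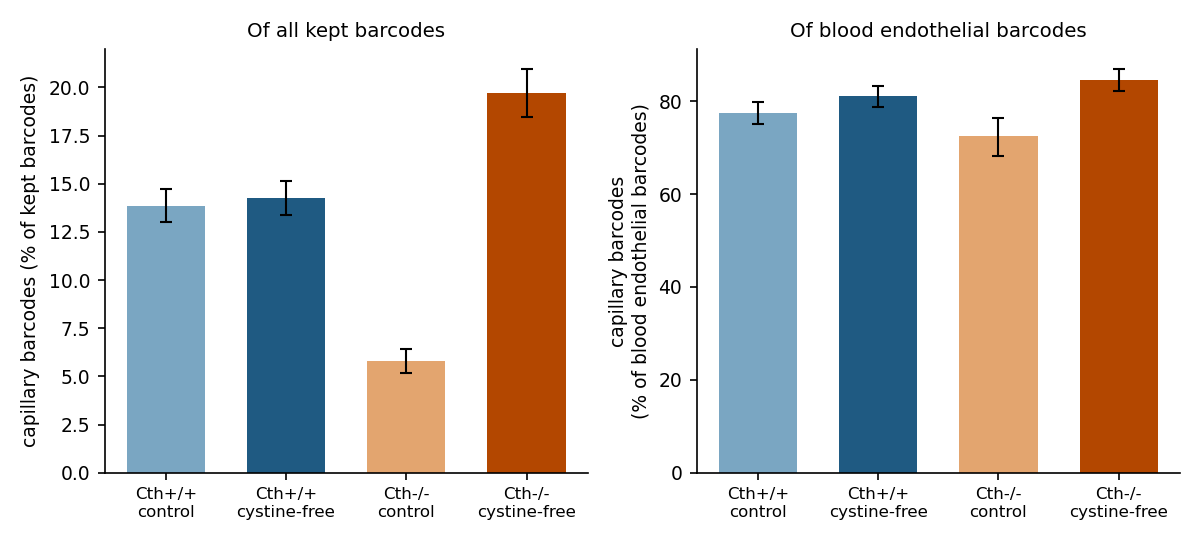
Capillary barcodes of each library as a percentage of all kept barcodes (left) and of blood endothelial barcodes (right), with 95% Clopper-Pearson intervals of counting error. The Cth-/- control library holds 5.78% of kept barcodes and the Cth-/- cystine-free library 19.7%, on either side of the Cth+/+ libraries.

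Capillary cells were the fewest in Cth-/- mice on the control diet. They made up 13.8% of kept barcodes in Cth+/+ control (95% Clopper-Pearson interval 13.0 to 14.7), 14.2% in Cth+/+ cystine-free (13.4 to 15.1), 5.78% in Cth-/- control (5.19 to 6.41) and 19.7% in Cth-/- cystine-free (18.5 to 20.9). The Cth+/+ intervals overlapped and the Cth-/- intervals did not. Among blood endothelial barcodes (1147, 1121, 464 and 961) the capillary share was 77.5%, 81.1%, 72.4% and 84.6%. Other gates leave few cells to compare with: 22, 26, 15 and 25 venous and large vessel barcodes and 17, 22, 7 and 10 lymphatic ones. These are shares of cells recovered from a digest of pooled depots, 1 for each group, so diet, genotype and recovery cannot be told apart. Over the mitochondrial limit lay a further 43, 29, 17 and 5 barcodes that met the rest of the rule.

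RNA of other cell types was present in capillary barcodes at unequal levels, and its part in the results below was not tested except where values are given. Mural markers (pericytes and smooth muscle, 8 genes, none at 0) summed to 1512, 1796, 1317 and 572 CPM. These UMIs were unevenly spread: 24.4%, 34.7%, 22.0% and 10.7% of capillary barcodes held 5 or more of them, while the median barcode held 1, 1, 0 and 0. Adipocyte markers (9 genes, none at 0) summed to 708, 337, 1958 and 3025 CPM, against 38.1, 24.4, 62.5 and 379 CPM in stromal barcodes (Dcn-rich, without endothelial UMIs). Of capillary barcodes 14.6%, 9.79%, 29.8% and 37.3% held 5 or more adipocyte marker UMIs. Progenitor markers (8 genes, none at 0) summed to 915, 1032, 1398 and 299 CPM and haemoglobin genes to 4655, 7975, 3287 and 684 CPM. Immune markers (8 genes) summed to 234, 285, 481 and 347 CPM, with Ptprc at 0 by the rule and Cd3e at 0 in both Cth-/- libraries. The Cth-/- cystine-free library thus had the lowest mural, progenitor and haemoglobin sums and the highest adipocyte sum.

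**Figure D2:**
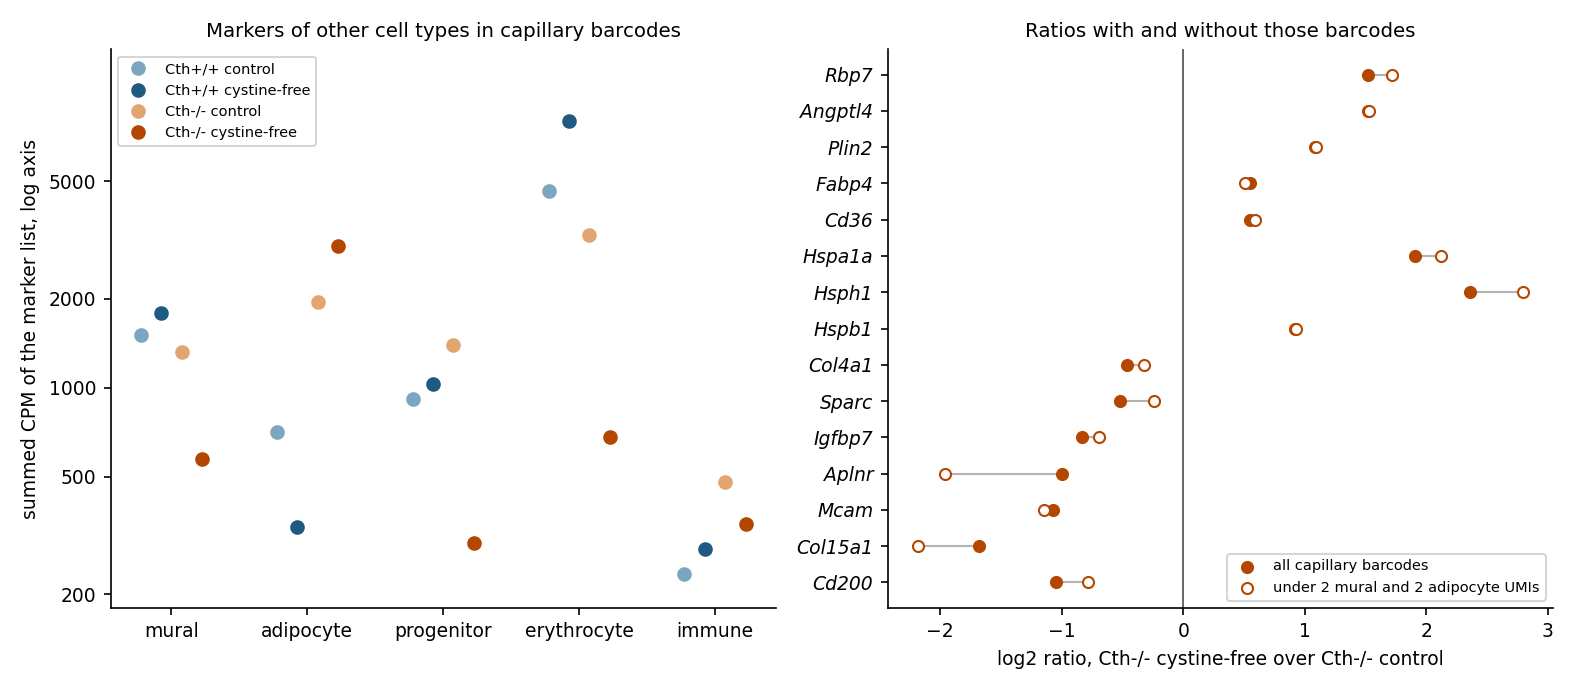
Left: summed CPM of marker lists of other cell types in capillary barcodes of each library, on a log axis. Right: log2 ratio of the diet in Cth-/- for 15 genes over all capillary barcodes (filled) and over those with under 2 mural and under 2 adipocyte marker UMIs (open). Every gene shown keeps its side of 0, from 1.52 and 1.71 for Rbp7 to -1.68 and -2.18 for Col15a1. The 15 genes are a chosen set, and some genes not shown changed side. Among these were Hist1h2ap (3.70 to -0.58), Cox4i2 (-1.76 to 0.14), Mgp (-1.11 to 0.62) and the mural marker Notch3 (-1.82 to 2.25).

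UMIs were summed over the capillary barcodes of a library, and ratios are log2 of CPM with 1 CPM added to each side, followed by an exact binomial interval of the UMIs. A gene counted as measured at 20 CPM or more in either library, and as apart at 1.5-fold or more. On the cystine-free diet, 2.1% of 6095 measured genes were higher and 2.72% lower in Cth+/+, against 5.19% higher and 8.81% lower of 6267 in Cth-/-, that is 4.82% and 14% apart in either direction. Cth-/- against Cth+/+ gave 6.68% higher and 4.67% lower of 6316 on the control diet, and 12% higher and 12.5% lower of 6200 on the cystine-free diet, 11.4% and 24.5% in either direction. These shares move with depth: with every library thinned to the UMIs of the Cth-/- control library, the 128 higher and 166 lower genes of the diet in Cth+/+ became 412 and 581. All-gene medians lay between -0.05 and 0.00. The 4 comparisons share libraries, and the Cth-/- cystine-free library enters both its diet and its genotype comparison.

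**Figure D3:**
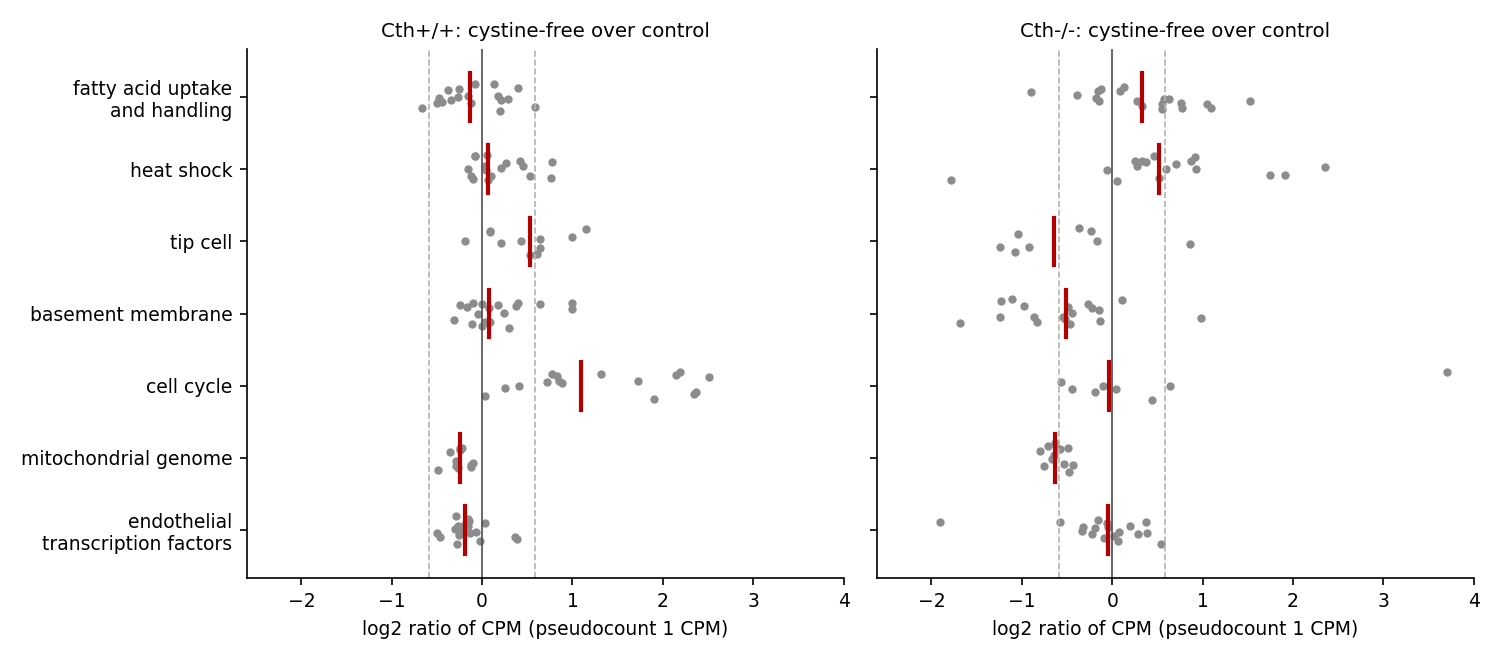
Log2 ratio of cystine-free over control diet in Cth+/+ (left) and Cth-/- (right) for the measured genes of 7 lists, 1 grey point per gene (vertical position within a row is arbitrary), with the list median in red and dashed lines at 1.5-fold. In Cth-/- the medians are 0.33 for fatty acid handling, 0.52 for heat shock, -0.65 for tip cell genes and -0.51 for basement membrane.

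Several genes of fatty acid uptake and storage, but not the list as a whole, were highest in Cth-/- mice on the cystine-free diet. With the diet in Cth-/-, 6 of the 19 members measured were higher by 1.5-fold or more and 1 was lower (median 0.33, all genes -0.05). In Cth+/+ 0 of 18 were higher and 1 was lower (median -0.14, all genes -0.03). Over all measured genes 5.19% were higher with the diet in Cth-/- and 2.1% in Cth+/+. Against Cth+/+, 8 of 19 were higher and 1 lower on the cystine-free diet (median 0.53, where 12% of all genes were higher), and 0 of 18 were apart on the control diet (6.68% higher and 4.67% lower over all genes). In stromal barcodes 5 of 11 measured members were higher with the diet in Cth-/- (median 0.26), and in immune barcodes 3 of 12 (0.29), so both medians were also above 0.

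Rbp7, a retinol-binding protein of fat endothelium, stood at 922, 1236, 735 and 2112 CPM. The Cth-/- cystine-free library was the highest, at a log2 ratio of 1.52 (1.41 to 1.64) over Cth-/- control, and the diet ratio in Cth+/+ was 0.42 (0.35 to 0.49). Stromal barcodes held 7.43, 7.08, 2.63 and 17.8 CPM of Rbp7. Angptl4, an inhibitor of lipoprotein lipase, stood at 239.6, 175, 286 and 823 CPM, with diet ratios of -0.45 (-0.61 to -0.29) in Cth+/+ and 1.52 (1.34 to 1.71) in Cth-/-. The directions in the 2 genotypes were opposite. Pdk4, the kinase that turns glucose oxidation down in favour of fat, was low at 15.6, 6.65, 20.4 and 52.8 CPM and had diet ratios of -1.12 (-1.98 to -0.50) and 1.33 (0.67 to 2.15).

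Fabp4, the fatty acid carrier and the most abundant capillary transcript, stood at 45001, 42665, 42138 and 61774 CPM (diet ratio in Cth-/- 0.55, 0.54 to 0.57). Cd36, the fatty acid translocase, stood at 4994, 4155, 4737 and 6929 CPM (0.55, 0.50 to 0.60). The 3 other libraries lay close together for both genes, and the Cth-/- cystine-free library was alone above them. Fabp4 also gave 498, 444, 351 and 1207 CPM in stromal barcodes, where the same library was the highest; the part of free RNA in these counts was not tested. Fabp5, the other abundant carrier, differed in pattern: at 1107, 1655, 994 and 2049 CPM it was higher on the cystine-free diet in both genotypes (0.58 in Cth+/+, 1.04 in Cth-/-).

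Pparg, the nuclear receptor that drives lipid uptake, stood at 99.9, 122, 125 and 214 CPM, highest in Cth-/- cystine-free (0.77, 0.49 to 1.08, for the diet). Plin2, a lipid droplet coat protein, stood at 203, 146, 200.04 and 426 CPM (1.09, 0.86 to 1.33). Lpl, the lipase, stood at 395, 332, 544 and 811 CPM (0.58, 0.43 to 0.72) and was also abundant in stromal barcodes at 1051, 1289, 946 and 895 CPM. In all 3 genes the Cth-/- cystine-free library was the highest, and in Plin2 and Lpl the cystine-free library of Cth+/+ was the lowest. Slc27a3, a fatty acid transport protein, was the member lower with the diet in Cth-/-, at 17.5, 20.4, 25.8 and 13.4 CPM. Members that were not higher by 1.5-fold with the diet included Aqp7, the glycerol channel, at 778, 549.5, 673 and 817 CPM, and the endothelial transcription factors Meox2 (144, 158, 139.8 and 128 CPM) and Tcf15 (596, 547, 557 and 498 CPM), which act together in fatty acid transport.

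The adipocyte marker sum was also highest in the Cth-/- cystine-free library. Over the 413, 402, 141 and 234 barcodes with under 2 mural and under 2 adipocyte marker UMIs, a subset chosen after seeing the data, the diet ratio in Cth-/- was 1.71 for Rbp7, 1.53 for Angptl4, 1.09 for Plin2, 0.59 for Cd36 and 0.51 for Fabp4. These are close to the values over all capillary barcodes. Of adipocyte genes, Cfd (adipsin) and Adipoq (adiponectin) are themselves part of the marker sum, and Pck1, an enzyme of glyceride synthesis, is not. Cfd stood at 302, 88.1, 875 and 1720.4 CPM, Adipoq at 22.8, 17.1, 69.9 and 107 CPM and Pck1 at 6.46, 2.37, 60.2 and 152 CPM. In the subset Cfd stood at 36.1, 15.2, 66.3 and 158 CPM and Adipoq at 2.06, 3.797, 0 and 11.3 CPM. Both are markers that the subset limits, so their low levels there follow from the selection. They do not measure the adipocyte RNA left in the subset, and its part in these ratios was not tested.

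**Figure D4:**
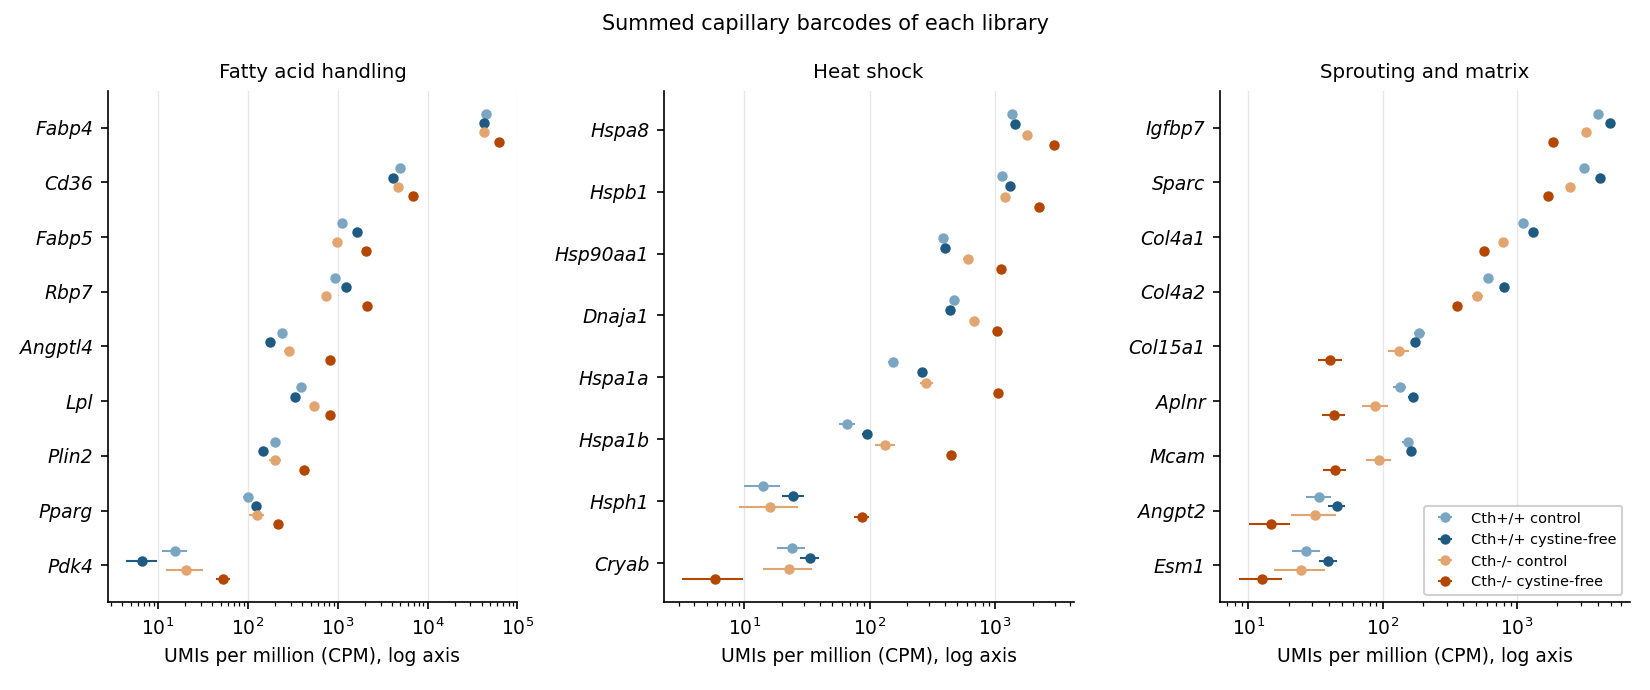
CPM of 26 genes in the summed capillary barcodes of each library, on log axes, with exact Poisson 95% intervals. The Cth-/- cystine-free library (dark orange) is the highest for Rbp7 (2112 CPM), Angptl4 (823 CPM) and Hspa1a (1068 CPM) and the lowest for Col15a1 (40.6 CPM), Aplnr (43.6 CPM) and Esm1 (12.6 CPM).

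Some heat shock genes, whose products refold damaged proteins, were highest in Cth-/- mice on the cystine-free diet. With the diet in Cth-/-, 8 of 17 were at least 1.5-fold higher and 1 was lower (median 0.52), where 5.19% and 8.81% of all genes were, against 2 of 17 higher and 0 lower in Cth+/+ (median 0.06, 2.1% of all genes higher). Against Cth+/+, 8 of 17 were higher and 1 lower on the cystine-free diet (median 0.50, 12% of all genes higher) and 4 of 16 were higher on the control diet (median 0.22, 6.68%). Stromal barcodes showed the same diet direction in Cth-/- (9 of 17 higher, median 0.61), as did immune barcodes (7 of 16, 0.31). On the control diet 0 of 16 members were higher with the genotype in stromal or immune barcodes.

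Hspa1a, the inducible Hsp70, stood at 154, 262, 284 and 1068 CPM, with diet ratios of 0.77 (0.60 to 0.94) in Cth+/+ and 1.91 (1.73 to 2.10) in Cth-/-. Hspa1b, its neighbour on the chromosome, stood at 66.1, 95.7, 133 and 449 CPM (1.74, 1.48 to 2.03, in Cth-/-). The 2 genes are near-identical copies, so how reads were split between them is uncertain, but both gave the same order of libraries. Hsph1, an Hsp110 that assists Hsp70, stood at 14.1, 24.7, 16.1 and 86.7 CPM (2.36, 1.67 to 3.29), and Hspb1, a small heat shock protein, at 1131, 1311, 1197 and 2261 CPM (0.92, 0.82 to 1.01). Each was highest in Cth-/- cystine-free.

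Hsp90aa1, the inducible form of Hsp90, stood at 387, 399, 609.8 and 1119.9 CPM, the constitutive Hsp70 Hspa8 at 1367, 1462, 1802 and 2949 CPM and Dnaja1, a co-chaperone, at 474, 441, 685 and 1032 CPM. In these 3 genes both Cth-/- libraries lay above both Cth+/+ libraries, and the cystine-free one was the higher. Hsp90ab1, the constitutive Hsp90, stood at 1171, 1218, 1183 and 1487 CPM (0.33 for the diet in Cth-/-). Dnajb1, another co-chaperone, stood at 177, 162, 314 and 432 CPM, with a larger genotype ratio (0.83 on control diet) than diet ratio (0.46 in Cth-/-). Cryab, a small heat shock protein that mural and muscle cells also express, went the other way at 23.9, 33.2, 22.6 and 5.86 CPM, beside the low mural sum of the same library. In barcodes with few mural and adipocyte UMIs the diet ratio in Cth-/- was 2.12 for Hspa1a, 2.79 for Hsph1 and 0.93 for Hspb1.

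Because these genes were high together, their promoters are shown for the letters of a heat shock element, the site bound by heat shock factors, here GAANNTTC or TTCNNGAA, which read the same on both strands. RefSeq promoter windows (build GRCm38.p6, 250 bases before to 50 after the start) were matched for 13 of 17 list members. Only the 250 bases before the start were searched. Either form was found in 7 of the 13: in 5 of the 6 members that were at least 1.5-fold higher with the diet in Cth-/-, and in 2 of the 7 that were not (Hspd1 and Hspe1, which share a promoter region). Hsp90aa1, Hsp90ab1, Hspa8 and Cryab were the members without an entry. Of all 27025 gene symbols in the table, 14.5% had either form. A match is a description of letters and not of binding. The 250 bases upstream of 4 genes are printed 5' to 3' on the gene's strand, with matches in capitals; those of Hspa1a and Hspa1b are identical at 247 of 250 bases.
Hspa1a (chr17:34972157-34972406, minus strand): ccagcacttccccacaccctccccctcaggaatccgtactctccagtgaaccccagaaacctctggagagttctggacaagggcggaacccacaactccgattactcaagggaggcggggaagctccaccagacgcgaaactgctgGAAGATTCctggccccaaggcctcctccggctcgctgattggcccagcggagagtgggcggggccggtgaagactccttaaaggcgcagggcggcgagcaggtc
Hspa1b (chr17:34959239-34959488, minus strand): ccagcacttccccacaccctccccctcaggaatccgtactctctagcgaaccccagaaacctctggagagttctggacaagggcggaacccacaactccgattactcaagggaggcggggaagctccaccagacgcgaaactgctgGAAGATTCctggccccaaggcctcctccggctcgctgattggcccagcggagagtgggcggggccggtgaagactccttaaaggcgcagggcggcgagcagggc
Hsph1 (chr5:149636337-149636586, minus strand): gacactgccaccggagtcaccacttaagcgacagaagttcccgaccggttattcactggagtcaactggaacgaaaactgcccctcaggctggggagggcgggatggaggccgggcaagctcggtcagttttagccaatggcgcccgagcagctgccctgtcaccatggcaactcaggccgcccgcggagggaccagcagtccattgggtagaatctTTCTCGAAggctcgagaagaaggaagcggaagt
Hspb1 (chr5:135887669-135887918, plus strand): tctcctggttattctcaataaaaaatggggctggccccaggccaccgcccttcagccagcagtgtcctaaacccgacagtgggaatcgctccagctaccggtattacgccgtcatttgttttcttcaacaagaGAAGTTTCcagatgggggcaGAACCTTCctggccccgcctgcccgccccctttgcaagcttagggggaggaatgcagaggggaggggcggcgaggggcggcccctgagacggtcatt
The match of Hspa1a and Hspa1b lies at -104 to -97 from the start site, that of Hsph1 at -33 to -26, and those of Hspb1 at -117 to -110 and -97 to -90.

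Most tip cell genes were lower in Cth-/- than in Cth+/+ on the cystine-free diet. On that diet 8 of the 11 tip cell genes measured stood lower in Cth-/- than in Cth+/+ by 1.5-fold or more, and 1 stood higher (median -1.57, all genes -0.01), where 12.5% and 12% of all genes were. Among members with at least 50 CPM in either library that median was -0.67. On the control diet 3 of 10 were lower and 2 higher (median -0.12), against 4.67% and 6.68% of all genes. With the diet, 5 of 11 were higher and 0 lower in Cth+/+ (median 0.53), and 4 of 8 lower and 1 higher in Cth-/- (median -0.65). Over all genes 2.1% were higher in Cth+/+ and 8.81% lower in Cth-/-. Plaur, the urokinase receptor, was the member that was higher in Cth-/- on both diets, at 27.7, 43.9, 74.2 and 135 CPM.

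Apln, the ligand apelin of tip cells, stood at 29.6, 66.9, 0 and 2.93 CPM. Both Cth-/- libraries lay below both Cth+/+ libraries: 0 UMIs in Cth-/- control put Cth+/+ control at least 9.18-fold higher against a floor of 3 UMIs, and on the cystine-free diet the ratio was -4.11 (-5.84 to -3.45). Apln was found in 3.82% of Cth+/+ control barcodes, 9.35% of Cth+/+ cystine-free, 0 of 336 in Cth-/- control (upper limit 1.09%) and 0.738% of Cth-/- cystine-free. At 1000 UMIs per barcode these shares were 0.971%, 3.92%, 0 of 312 (upper limit 1.18%) and 0.264%. Immune barcodes, which should lack Apln, had it in 0.440%, 0.633%, 0.2004% and 0 of 323 barcodes at medians of 2769, 3476.5, 3484 and 3069 UMIs. At 1000 UMIs the immune shares were 0.224%, 0.214%, 0 of 483 and 0 of 320. The interval of the Cth+/+ cystine-free capillary share lay above that of the immune share at both depths (2.75 to 5.41 against 0.00541 to 1.18 when thinned). The Cth+/+ control share did so at full depth but not when thinned (0.420 to 1.90 against 0.00568 to 1.24), and the Cth-/- cystine-free share at neither.

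Its receptor gene Aplnr stood at 134, 167, 88.2 and 43.6 CPM, with diet ratios of 0.32 (0.13 to 0.51) in Cth+/+ and -1.001 (-1.45 to -0.58) in Cth-/-. Angpt2, the ligand that loosens vessels before sprouting, stood at 33.8, 45.8, 31.2 and 14.7 CPM (-1.04, -1.84 to -0.33, in Cth-/-). Esm1, a proteoglycan secreted by tip cells, stood at 26.96, 39.4, 24.7 and 12.6 CPM (-0.92, -1.81 to -0.13). For all 3 the Cth+/+ cystine-free library was the highest and the Cth-/- cystine-free library the lowest. Mcam, an adhesion molecule that mural cells also express, stood at 154, 163, 93.6 and 44.0 CPM (-1.07, -1.51 to -0.66). In barcodes with few mural and adipocyte UMIs the Cth-/- diet ratio was -0.05 for Esm1, -1.96 for Aplnr, -1.15 for Mcam and -1.004 for Angpt2, the last from 6 and 5 UMIs. The diet difference of Esm1 in Cth-/- was thus not seen there. Its genotype ratio on the cystine-free diet was -1.07 in these barcodes, from 17 UMIs in Cth-/- and 90 in Cth+/+.

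Of the growth factor receptors, some were close between libraries and some were not. Kdr, the main VEGF receptor, stood at 1452, 1219, 1400.3 and 1155 CPM and Flt1, its decoy, at 1096, 912, 1272 and 1141 CPM. Tek, the receptor of Angpt2, stood at 173, 157, 222 and 185 CPM. Flt4, the VEGF-C receptor, stood at 33.0, 38.5, 41.9 and 26.4 CPM (-0.65, -1.27 to -0.05, for the diet in Cth-/-), and Nrp2, a co-receptor, at 163, 159.8, 125 and 98.0 CPM (-0.70, -0.93 to -0.49, for the genotype on the cystine-free diet). In the VEGF and angiopoietin list 0 of 14 genes were higher and 5 lower with the genotype on the cystine-free diet (median -0.48). Over all genes the shares were 12% and 12.5%. Apln and Angpt2, among the lower ones, are also tip cell list members. In the same list 0 of 12 genes were higher and 3 lower with the diet in Cth-/- (5.19% and 8.81% of all genes). In Cth+/+ 2 of 14 were higher and 0 lower (2.1% and 2.72%). In the Notch list 0 of 11 genes were higher in any comparison (2.1% to 12% of all genes). With the diet in Cth-/- 2 were lower (8.81% of all genes), Hey1 (50.5, 61.005, 68.8 and 34.8 CPM) and Heyl (17.8, 23.3, 21.5 and 5.03 CPM). Both are effectors of Notch. Heyl is also a gene of mural cells and gave at most 1.52 CPM in barcodes with few mural and adipocyte UMIs.

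Most barcodes with at least 3 UMIs of 9 core cell cycle genes, at full depth, came from Cth+/+ mice on the cystine-free diet. With the diet in Cth+/+, 13 of the 16 cell cycle genes measured were higher by 1.5-fold or more and 0 were lower (median 1.10), against 2.1% and 2.72% of all genes. With the diet in Cth-/-, 2 of 8 were higher, Stmn1 and Hist1h2ap (median -0.03, 5.19% of all genes higher). Of the 262 Hist1h2ap UMIs in Cth-/- cystine-free 1 barcode held 252, and 1 barcode held 60 of the 249 Stmn1 UMIs. On the cystine-free diet 15 of 16 were lower and 1 higher in Cth-/- than in Cth+/+ (median -1.20), against 12.5% and 12% of all genes. Top2a, the topoisomerase of dividing cells, stood at 9.49, 52.9, 3.23 and 12.6 CPM, from 25, 223, 3 and 30 UMIs. In Cth-/- cystine-free 1 barcode, of 45251 UMIs in all, held 25 of the 30. Mki67, a marker of division, gave 7, 82, 1 and 9 UMIs. Ccnd1, the cyclin that starts the cycle, was spread over more cells and stood at 156, 296, 37.6 and 26.0 CPM, lower in both Cth-/- libraries (-2.02, -2.59 to -1.55, on control and -3.46, -3.90 to -3.14, on cystine-free diet).

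**Figure D5:**
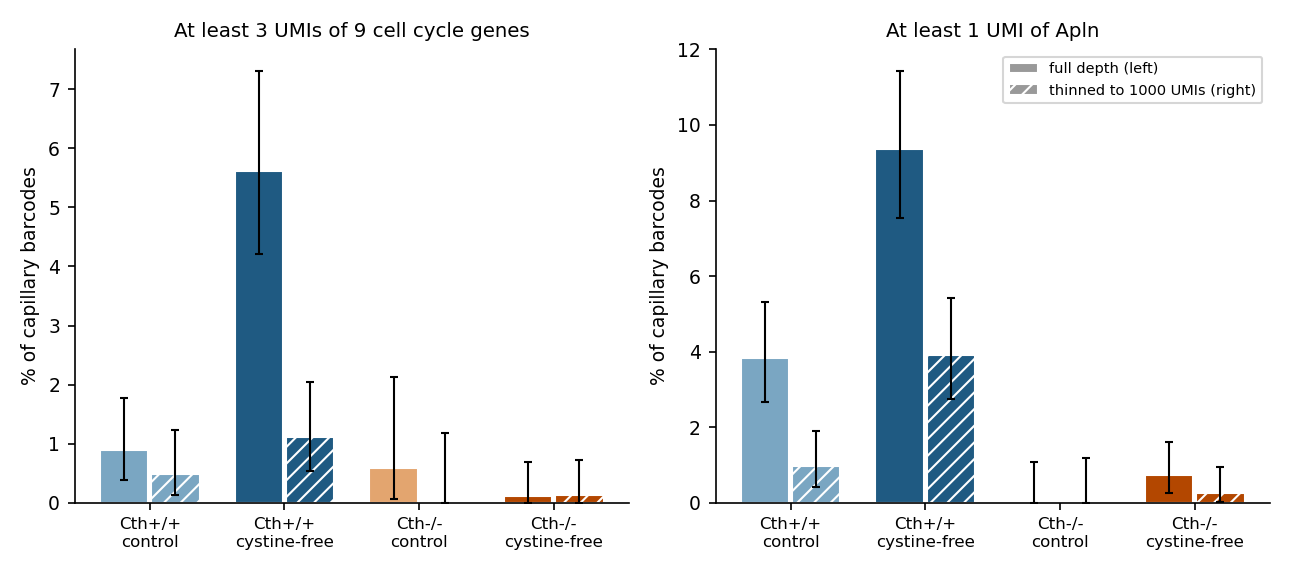
Capillary barcodes with at least 3 UMIs of 9 core cell cycle genes (left) and with at least 1 UMI of Apln (right), at full depth and after thinning each barcode to 1000 UMIs, with 95% Clopper-Pearson intervals. At full depth the Cth+/+ cystine-free library is the highest in both, at 5.61% and 9.35%; after thinning the cycling shares are 0.485%, 1.12%, 0% and 0.132%, and the Cth+/+ intervals overlap.

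Barcodes with at least 3 UMIs of 9 core cell cycle genes (Mki67, Top2a, Birc5, Cdk1, Ccnb1, Ccnb2, Cenpf, Tpx2 and Ube2c) numbered 8 of 889 (0.8999%), 51 of 909 (5.61%), 2 of 336 (0.595%) and 1 of 813 (0.123%). After thinning they numbered 4 of 824, 10 of 892, 0 of 312 and 1 of 759, so the order of the Cth+/+ libraries was not separable at that depth. With these barcodes left out, the median of the cell cycle list was 0.14 for the diet in Cth+/+ and -0.43 for the genotype on the cystine-free diet, both within 1.5-fold. In the Cth+/+ cystine-free library 27 of the 51 also held Apln, and they held 140 of its 282 Apln UMIs. By a looser measure, at least 2 UMIs of all 23 cell cycle genes after thinning, the shares were 12.9%, 21.5%, 14.7% and 12.1% (45.7%, 66.9%, 49.7% and 44.5% unthinned), and for tip cell genes 15.4%, 20.9%, 13.5% and 13.0% (44.2%, 63.1%, 43.5% and 36.7% unthinned).

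Some genes of the basement membrane, the matrix sheet on which capillaries rest, were lowest in Cth-/- mice on the cystine-free diet. With the diet in Cth-/-, 7 of the 18 members measured were lower by 1.5-fold or more and 1 was higher (median -0.51, 8.81% of all genes lower). In Cth+/+ 0 of 19 were lower and 3 higher (median 0.08), against 2.72% and 2.1% of all genes. Against Cth+/+ on the cystine-free diet, 13 of 19 were lower and 1 higher (median -0.73, 12.5% of all genes lower), and on the control diet 0 of 18 were lower. Stromal barcodes, which make more of this matrix, had 11 of 18 lower with the diet in Cth-/- (median -0.80).

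Col4a1, a chain of the network-forming collagen IV, stood at 1119, 1325, 787 and 570.0 CPM, with diet ratios of 0.24 (0.18 to 0.31) in Cth+/+ and -0.47 (-0.60 to -0.33) in Cth-/-. Its partner chain Col4a2 stood at 616, 800.4, 509 and 361 CPM (-0.49, -0.66 to -0.33, in Cth-/-). Sparc, a collagen-binding matricellular protein, stood at 3185, 4179, 2475 and 1722 CPM (-0.52, -0.60 to -0.45). In these 3 genes the Cth+/+ cystine-free library was the highest and the Cth-/- cystine-free library the lowest, with Cth-/- control between Cth+/+ control and the lowest.

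Igfbp7, a secreted protein bound to vessel collagen IV, stood at 4046, 4974, 3301 and 1850.2 CPM (-0.83, -0.90 to -0.77), and Sparcl1, a relative of Sparc, at 1212, 1175, 1182 and 649 CPM (-0.86, -0.98 to -0.75). Col15a1, a collagen that links basement membrane to the stroma, stood at 188, 174, 132 and 40.6 CPM (-1.68, -2.10 to -1.31). For Sparcl1 and Col15a1 the other libraries lay closer together than for Igfbp7. Col15a1 is abundant in stromal barcodes (658, 729, 557 and 58.9 CPM), where the Cth-/- cystine-free library was also the lowest. Progenitor marker sums of the capillary barcodes, 1398 CPM in Cth-/- control and 299 CPM in Cth-/- cystine-free, moved with it. Loxl2, an enzyme that crosslinks collagen IV, was the member that was higher, at 22.4, 22.3, 23.7 and 47.7 CPM (0.98, 0.35 to 1.74).

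In barcodes with few mural and adipocyte UMIs the Cth-/- diet ratio was -0.33 for Col4a1, -0.24 for Sparc, -0.69 for Igfbp7 and -2.18 for Col15a1, and the genotype ratio on the cystine-free diet was -0.87, -0.97, -0.86 and -1.90. Mgp, a mineralisation inhibitor of vessels and stroma at 76.7, 154, 92.5 and 42.3 CPM, had a Cth-/- diet ratio of -1.11 over all capillary barcodes. In barcodes with under 2 adipocyte UMIs the ratio of Mgp was reversed, at 0.76 from 20 and 49 UMIs. In barcodes with few mural and adipocyte UMIs it was 0.62, from 1 and 3 UMIs. With under 2 mural UMIs alone it was -1.12, from 5 and 7 UMIs.

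Some surface proteins of the capillary lumen were lowest in Cth-/- mice on the cystine-free diet. Cd200, an immune-restraining glycoprotein, stood at 1449, 1219, 1407 and 681 CPM (-1.05, -1.15 to -0.94, for the diet in Cth-/-), while in stromal barcodes its diet ratio in Cth-/- was 0.68. Cd34, a sialomucin, stood at 207, 231, 187 and 93.8 CPM (-0.99, -1.29 to -0.70), and Cav1, the coat protein of caveolae, at 1445, 1658, 1093 and 835 CPM (-0.99, -1.06 to -0.92, for the genotype on cystine-free diet). For Cd200 and Cd34 the Cth-/- cystine-free library alone was low. Of the 12 junction genes measured, 0 were higher and 2 lower with the diet in Cth-/-, Jam3 (78.99, 82.1, 76.4 and 32.7 CPM) and the fenestral protein Plvap (297, 216, 387 and 256 CPM). Of the glycocalyx list 0 of 10 were higher and 3 lower. Over all genes 5.19% were higher and 8.81% lower, so the junction count lay near the background.

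Of 18 endothelial transcription factors measured, 0 were apart with the diet in Cth+/+ (4.82% of all genes) and 1, Heyl, with the diet in Cth-/- (14% of all genes). With the genotype on the cystine-free diet 3 were higher (Sox7, Tal1 and Foxp1) and 2 lower (Bcl6b and Heyl), against 12% and 12.5% of all genes, so these shares lay near the background. Sox17 stood at 235, 232, 246 and 259 CPM and Sox18 at 189, 170.2, 186 and 227 CPM, both regulators of endothelial fate. Arterial markers summed to 742, 783, 763 and 850 CPM, and barcodes with at least 2 of their UMIs after thinning were 15.4%, 17.4%, 18.6% and 19.2% (41.8%, 54.9%, 42.6% and 46.5% unthinned). Venous markers summed to 230, 150, 254 and 166 CPM, limited by the rule on Vwf, Ackr1 and Selp. Lrg1, a venous marker, stood at 102, 39.6, 126 and 50.7 CPM and was lower on the cystine-free diet in both genotypes (-1.34, -1.65 to -1.08 and -1.30, -1.69 to -0.93), against 929.6, 1192, 765 and 1141 CPM in venous and large vessel barcodes.

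Immediate early genes, which respond within minutes to many stimuli, tissue digestion among them, were in part higher in Cth-/- than in Cth+/+ capillaries. Of 19 measured, 7 were at least 1.5-fold higher and 0 lower in Cth-/- than in Cth+/+ on the control diet (median 0.44, 6.68% of all genes higher) and 12 on the cystine-free diet (median 0.67, 12% of all genes), while the diet gave 0 higher in either genotype. Stromal barcodes had 1 of 19 higher on the control diet (median 0.11) and 8 of 19 on the cystine-free diet (median 0.43), with 0 lower on either. Fosb, a subunit of the AP-1 factor, stood at 792, 750.3, 1421 and 1557 CPM, Atf3 at 449, 469.5, 749.6 and 829.6 CPM and Nr4a1, an orphan nuclear receptor, at 707, 583, 1119.6 and 986 CPM. In each, both Cth-/- libraries lay above both Cth+/+ libraries. Klf4, a factor that responds to flow, stood at 719.6, 560.0, 1170.1 and 1314 CPM and Thbd, the thrombin-binding anticoagulant thrombomodulin, at 276, 236, 458 and 409 CPM, in the same order of genotypes.

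Glucocorticoid-responsive genes had 6 of 13 higher and 0 lower with the genotype on the control diet (median 0.37, 6.68% of all genes higher) and 8 of 15 on the cystine-free diet (median 0.69, 12%). Mt1, a metallothionein that binds zinc, stood at 1524, 1069.6, 3426 and 2865 CPM (1.17, 1.10 to 1.24, on control and 1.42, 1.37 to 1.48, on cystine-free diet), and Mt2 at 779, 434, 1808 and 1265 CPM. Stromal barcodes held more Mt1, 5129, 6686, 7915 and 11279 CPM, with the same order of genotypes. Sgk1, a kinase of ion transport, stood at 665, 600.3, 1013 and 967 CPM. Cdkn1a, the cyclin kinase inhibitor p21, stood at 758, 612, 1488 and 2335 CPM, so that both the genotype ratio on the control diet (0.97, 0.87 to 1.07) and the diet ratio in Cth-/- (0.65, 0.56 to 0.74) were above 0.

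The interferon list had 8 of 22 genes higher and 3 lower in Cth-/- on the cystine-free diet (median 0.12, 12% of all genes higher), and 3 of 21 higher and 0 lower on the control diet (6.68%). Iigp1, an interferon-induced GTPase, stood at 312, 236, 493 and 689 CPM and Isg15, a ubiquitin-like modifier, at 281, 219, 337 and 435 CPM, while Bst2, the virus tether, stood at 654, 640.4, 501 and 320.4 CPM, lowest in Cth-/- cystine-free. The share of members lower, 3 of 22, lay near the 12.5% of all genes. MHC class II genes Cd74 (142, 191, 273 and 208 CPM) and H2-Aa (67.2, 76.9, 156 and 97.6 CPM) were higher in Cth-/- control than in Cth+/+ control, and immune markers, of which Cd74 is one, summed highest in that library. Of the list of leukocyte adhesion and chemokines, 6 of 13 genes were lower with the diet in Cth-/- and 0 higher, against 8.81% and 5.19% of all genes. Ccl2 stood at 56.2, 47.9, 212 and 71.6 CPM and Ccl7, another chemokine for monocytes, at 83.2, 52.2, 359 and 67.01 CPM, both highest in Cth-/- control, where 5 barcodes held 53.6% of the Ccl7 UMIs. Stromal barcodes held more Ccl7, 689, 692, 1041 and 1802 CPM.

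Transcripts of the mitochondrial genome were lower with the diet in Cth-/-, 6 of 11 by at least 1.5-fold (median -0.63), against 0 of 11 in Cth+/+ (median -0.25). Over all genes 8.81% were lower in Cth-/- and 2.72% in Cth+/+. The nuclear genes of the respiratory chain did not share this: 0 of 25 were apart with the diet in either genotype (14% of all genes in Cth-/- and 4.82% in Cth+/+). Stromal barcodes gave 6 of 11 lower (median -0.59). mt-Nd1, a complex I subunit, stood at 3609, 3318, 3463 and 1984 CPM. The rule's limit on mitochondrial UMIs uses these genes, and the median mitochondrial share of the capillary barcodes was 4.30%, 3.63%, 4.08% and 2.61%.

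Atf4 targets respond to amino acid shortage. With the diet 0 of 13 were apart in Cth+/+ (4.82% of all genes), and in Cth-/- 0 of 14 were higher and 1, Nupr1, was lower (14% of all genes apart), which is near the background. On the cystine-free diet 5 of 13 were higher and 3 lower with the genotype, against 12% and 12.5% of all genes. Asns, asparagine synthetase, stood at 14.1, 14.01, 11.8 and 18.8 CPM. Trib3 gave 8, 21, 4 and 6 UMIs, of capillary totals of 2633398, 4212774, 929822 and 2387797 UMIs. These counts are not scaled to depth and cannot be set beside CPM. Stromal barcodes held 0.270, 1.20, 2.02 and 14.3 CPM of Trib3. Slc7a11, the cystine importer, gave 3, 1, 1 and 1 UMIs, at or below the floor of 3. Of 13 Nrf2 targets, genes of the antioxidant response, 0 were higher and 2 lower with the diet in Cth+/+ (Gclc and Me1, 2.72% of all genes lower). In Cth-/- 0 were higher and 2 lower (Me1 and Tkt, 8.81% of all genes lower). With the genotype on the cystine-free diet 4 were higher and 0 lower, against 12% and 12.5% of all genes. Of cysteine and glutathione genes 2 of 13 were higher and 1 lower with the diet in Cth-/-, against 5.19% and 8.81% of all genes. The higher ones were the glutathione transferases Gstt2 (124, 119, 109.7 and 189 CPM) and Mgst1 (193, 193, 237 and 397 CPM). With the diet in Cth+/+ 0 of 13 members of this list were higher and 3 lower (2.1% and 2.72% of all genes). With the genotype on the cystine-free diet 6 of 13 were higher and 1 lower (12% and 12.5% of all genes). Slc6a6, the taurine importer, stood at 447, 343, 711 and 801 CPM, higher in both Cth-/- libraries.

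Other genes were named by their size of ratio alone. Higher with the diet in Cth-/- were Exosc2, a subunit of the RNA exosome, at 49.0, 31.6, 32.3 and 116 CPM (1.82, 1.31 to 2.45), Ubd, a ubiquitin-like protein, at 34.9, 24.2, 15.1 and 53.2 CPM (1.75, 1.02 to 2.73), Tmem252 at 52.4, 78.1, 46.2 and 133 CPM (1.501, 1.06 to 2.02) and Stmn2, a microtubule regulator and here an arterial marker, at 38.4, 52.2, 21.5 and 77.1 CPM (1.79, 1.17 to 2.59). Hist1h2ap and Jchain were also among the highest, but in Cth-/- cystine-free 5 barcodes held 97.7% and 91.0% of their UMIs. Lower were Mid1, a ubiquitin ligase, at 22.8, 17.3, 53.8 and 14.2 CPM (-1.85, -2.59 to -1.26), and Slco2a1, a prostaglandin transporter, at 41.8, 22.1, 63.5 and 25.1 CPM (-1.30, -1.88 to -0.79).

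Of the 12 lowest named genes of this comparison, 6 are known from mural cells: Notch3, Cox4i2, Kcnj8, Ndufa4l2, Higd1b and Steap4. Ndufa4l2 stood at 155, 237, 136 and 42.7 CPM and Notch3 at 112, 123, 124 and 34.3 CPM, against 4.12, 2.28, 6.63 and 3.77 and 1.03, 2.28, 0 and 3.77 CPM in barcodes with few mural and adipocyte UMIs, where 5 of the 6 (all but Steap4) stood at 9.95 CPM or less in every library. Notch3 and Kcnj8 are among the mural markers that this subset limits, so their low levels there follow from the selection. The mural sum, of which both are members, was likewise lowest in the Cth-/- cystine-free library.

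Genes named by the genotype ratio were mostly those of adipocytes on the higher side. On both diets Pck1, Cfd, Cidec, Adig, Adipoq, Trf and Car3 were among the 10 highest, beside the higher adipocyte marker sum of both Cth-/- libraries. Cfd, Cidec, Adipoq and Car3 are members of that sum. Car3, a carbonic anhydrase of fat, stood at 208, 125, 679 and 665 CPM and Trf, transferrin, at 26.96, 16.9, 67.8 and 98.8 CPM. Cdo1, the enzyme that oxidises cysteine, stood at 33.8, 20.7, 81.7 and 56.1 CPM, with a genotype ratio of 1.25 (0.81 to 1.73) on the control diet. In barcodes with under 2 adipocyte marker UMIs its ratio on the control diet lay below 0. Ifi27l2a, an interferon-induced gene, stood at 171, 103, 474 and 538 CPM, against 1323, 948, 1507 and 787 CPM in stromal barcodes.

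Lower with the genotype on the control diet were Gadd45gip1, a mitochondrial ribosome protein, at 55.4, 51.5, 22.6 and 43.6 CPM (-1.26, -2.03 to -0.63), the kinase Nuak1 at 65.3, 47.2, 27.96 and 35.6 CPM (-1.20, -1.88 to -0.62) and Ttc14 at 61.5, 57.2, 26.9 and 47.3 CPM (-1.16, -1.86 to -0.58). In each the Cth-/- control library, the shallowest in these cells, was the lowest. On the cystine-free diet the long noncoding RNA Meg3, at 47.5, 78.8, 40.9 and 16.8 CPM, was among the lowest (-2.17, -2.75 to -1.76), as were Apln, Ccnd1, Top2a, Aplnr, Mcam, Col15a1 and the mural genes Rgs5, Ndufa4l2 and Cox4i2. Stmn1, a microtubule regulator of dividing cells, was named for the diet in Cth+/+ at 47.5, 159.8, 66.7 and 104 CPM (1.73, 1.47 to 2.04), as were Top2a and Apln. The Cth+/+ diet ratio of Apln, 1.15 over all capillary barcodes, was 0.45 with cycling barcodes left out, 0.53 with under 2 adipocyte UMIs and 0.36 with few mural and adipocyte UMIs, each under 1.5-fold. Jchain was named too, but 5 barcodes of Cth+/+ cystine-free held 98.7% of its UMIs.

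Capillary barcodes of 1 library also differed among themselves. Over 1166 genes, thinned to 1000 UMIs, the ratio of variance to mean across barcodes had a median of 1.05 (mean of the 4 libraries per gene; 1 is the value of pure counting). The haemoglobin genes Hbb-bs at 141, Hba-a1 at 84.0 and Hba-a2 at 60.4 had the largest ratios; the last pair are near-identical copies. Fabp4 followed at 13.2, then Malat1 at 7.53, Mt1 at 6.53 and Mt2 at 5.95. Below them lay Cd74 at 4.72, Igfbp7 at 4.35 and Fabp5 at 4.31. The metallothionein ratios were larger in the Cth-/- libraries (8.08 and 8.24 for Mt1) than in the Cth+/+ libraries (5.06 and 4.73), alongside the higher means there.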

How the data were processed

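Single cells of digested subcutaneous fat were profiled on the 10x Genomics platform in 4 libraries. The authors deposited raw UMI counts per gene and cell barcode for filtered barcodes, made with Cell Ranger 3.0.0 per the file headers and with build mm10 per the submitters' processing notes; the annotation is not given in the sources used here. Barcode and gene lists (other values) were deposited beside each matrix.

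Barcodes were chosen by the rule given in the report, and their counts were summed per library in Python (numpy 2.4.6, pandas 2.3.3, scipy 1.17.1). CPM is per 1000000 summed UMIs, and ratios are log2 of CPM plus 1. With 1 library per group there is no test; intervals (exact Poisson, exact binomial and Clopper-Pearson, 95%) cover counting error only, and barcodes are not replicates. A gene was measured at 20 CPM or more in either library and apart at 1.5-fold. Shares of barcodes were compared after thinning to 1000 UMIs (seed 1). Doublets were called with Scrublet in scanpy 1.11.5 and left in. The steps were tested on simulated counts.

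Named genes were the 10 highest and 10 lowest ratios of a comparison (12 and 12 for the diet in Cth-/-). For these the higher library had to reach 50 CPM and 30 UMIs and the ratio 2-fold, with a level no lower than 1 part in 5 of that in whichever other class of 50 or more barcodes was highest. Mitochondrial, ribosomal, haemoglobin and immunoglobulin genes, Xist, rule genes and unnamed models were left out, and list members, markers and Cth were added. The members and lists were chosen with earlier results of these data known. Alternatives covered the barcode limits, doublets, summing, thinning, centring, pseudocount and minimum level.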

Additional observations from a re-analysis of the deposited data

Results flagged for a closer look

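For 7 genes named by size, the diet ratio was at least 1.5-fold in opposite directions in the 2 genotypes, with counting intervals that excluded 0 in both. Each group is 1 library, so the difference was not tested, and no explanation was tested. The Cth-/- diet log2 ratio exceeded the Cth+/+ one by 2.74 for Cfd, 2.46 for Pck1 and 2.27 for Cidec. These are adipocyte genes and were highest in the library with the highest adipocyte marker sum, of which Cfd and Cidec are members. The difference was 2.44 for Pdk4, a kinase that limits glucose oxidation, and 2.44 for Exosc2, an RNA exosome subunit. It was -2.25 for Ndufa4l2, which mural cells express, and -1.96 for the long noncoding RNA Meg3.

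Barcodes that met the capillary rule except for the mitochondrial limit lie outside the comparisons of the report. They numbered 43 in Cth+/+ control, 29 in Cth+/+ cystine-free, 17 in Cth-/- control and 5 in Cth-/- cystine-free, where the mitochondrial share of the kept capillary barcodes was also the lowest.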

How the results depend on the processing

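The results were recomputed under 20 alternatives, 13 planned and 7 chosen after seeing the data: subsets of barcodes with few mural, adipocyte or haemoglobin UMIs, cycling barcodes left out, UMI sums thinned to 929822 UMIs per library and counting intervals. Counts of genes apart moved with the minimum level and with alternatives that leave fewer barcodes or UMIs; beyond that construction the cause was not tested. Of 66 named gene values, compared 1188 times, 15 reversed, in 9 values. A further 138 moved beyond a limit set from, and smaller than, the width of their counting interval. No paired analysis was possible because each group is 1 library, and for the same reason no replicate could be left out. Depth limits the low genes: 3 UMIs stand at 3.23 CPM in the Cth-/- control library, and the Cth-/- control values of tip cell and cell cycle genes rest on few UMIs.

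The 128 genes higher for the diet in Cth+/+ became 197 with a mitochondrial limit of 5%, 250 with few mural UMIs, 198 with few adipocyte UMIs, 323 with few UMIs of both, 412 with barcodes thinned to 1000 UMIs, 54 with at least 50 CPM, 1129 with no minimum CPM and 412 with UMI sums thinned to the smallest library. The 166 genes lower for the diet in Cth+/+ became 347 with Dcn at 0, 370 with few mural UMIs, 488 with few UMIs of both, 250 with the mean over barcodes, 548 with barcodes thinned to 1000 UMIs, 100 with a pseudocount of 5 CPM, 56 with at least 50 CPM, 1276 with no minimum CPM and 581 with UMI sums thinned to the smallest library. The 325 genes higher for the diet in Cth-/- became 641 with Dcn at 0, 528 with few mural UMIs, 716 with few adipocyte UMIs, 950 with few UMIs of both, 822 with barcodes thinned to 1000 UMIs, 133 with at least 50 CPM and 2053 with no minimum CPM. The 552 genes lower for the diet in Cth-/- became 944 with Dcn at 0, 1007 with few adipocyte UMIs, 1071 with few UMIs of both, 1047 with barcodes thinned to 1000 UMIs, 192 with at least 50 CPM and 2598 with no minimum CPM. The 422 genes higher for the genotype on the control diet became 751 with Dcn at 0, 683 with few adipocyte UMIs, 932 with few UMIs of both, 879 with barcodes thinned to 1000 UMIs, 160 with at least 50 CPM and 2410 with no minimum CPM. The 295 genes lower for the genotype on the control diet became 600 with Dcn at 0, 528 with few mural UMIs, 584 with few adipocyte UMIs, 783 with few UMIs of both, 813 with barcodes thinned to 1000 UMIs, 76 with at least 50 CPM, 2284 with no minimum CPM, 468 with UMI sums thinned to the smallest library and 195 with counting intervals that exclude 0. The 743 genes higher for the genotype on the cystine-free diet became 431 with at least 50 CPM and 2005 with no minimum CPM. The 775 genes lower for the genotype on the cystine-free diet became 411 with at least 50 CPM and 2412 with no minimum CPM.

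Named genes that changed sign were these, for causes not tested beyond the barcodes or UMIs each alternative removes. Notch3 is a mural marker and Cidec and Adipoq are adipocyte markers, so the subsets with few such UMIs limit these genes directly. Top2a for the diet in Cth+/+ went from 2.36 to -0.25 with cycling barcodes left out. Hist1h2ap for the diet in Cth-/- went from 3.70 to -0.54 with Dcn at 0, -1.11 with few adipocyte UMIs, -0.58 with few UMIs of both, -0.71 with cycling barcodes left out and -0.10 with barcodes thinned to 1000 UMIs. Notch3 for the diet in Cth-/- went from -1.82 to 1.11 with few mural UMIs and 2.25 with few UMIs of both. Cox4i2 for the diet in Cth-/- went from -1.76 to 0.14 with few UMIs of both. Cidec for the genotype on the control diet went from 1.71 to -0.25 with few UMIs of both. Adipoq for the genotype on the control diet went from 1.58 to -1.99 with few adipocyte UMIs and -1.61 with few UMIs of both. Cdo1 for the genotype on the control diet went from 1.25 to -0.74 with few adipocyte UMIs. Hist1h2ap for the genotype on the control diet went from -2.73 to 1.55 with cycling barcodes left out. Ndufa4l2 for the genotype on the cystine-free diet went from -2.45 to 0.54 with few UMIs of both.

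With a mitochondrial limit of 5% the capillary share of kept barcodes was 12.5% in Cth+/+ control and 4.97% in Cth-/- control. With at least 5 capillary UMIs the capillary share of kept barcodes was 11.1% in Cth+/+ control, 13.0% in Cth+/+ cystine-free, 4.59% in Cth-/- control and 17.2% in Cth-/- cystine-free. With Dcn at 0 the capillary share of kept barcodes was 8.45% in Cth+/+ control, 6.99% in Cth+/+ cystine-free, 2.74% in Cth-/- control and 12.6% in Cth-/- cystine-free. With a mitochondrial limit of 5% the capillary share of blood endothelial barcodes was 85.3% in Cth+/+ control, 86.8% in Cth+/+ cystine-free, 81.9% in Cth-/- control and 87.4% in Cth-/- cystine-free. With a minimum of 1000 UMIs and 500 genes the capillary share of blood endothelial barcodes was 80.2% in Cth+/+ control. With at least 5 capillary UMIs the capillary share of blood endothelial barcodes was 62.2% in Cth+/+ control, 74.2% in Cth+/+ cystine-free, 57.5% in Cth-/- control and 73.8% in Cth-/- cystine-free. Without thinning the cell cycle share was 45.7% in Cth+/+ control, 66.9% in Cth+/+ cystine-free, 49.7% in Cth-/- control and 44.5% in Cth-/- cystine-free. Without thinning the tip cell share was 44.2% in Cth+/+ control, 63.1% in Cth+/+ cystine-free, 43.5% in Cth-/- control and 36.7% in Cth-/- cystine-free. Without thinning the arterial share was 41.8% in Cth+/+ control, 54.9% in Cth+/+ cystine-free, 42.6% in Cth-/- control and 46.5% in Cth-/- cystine-free. Without thinning the interferon response share was 98.8% in Cth+/+ control, 99.6% in Cth+/+ cystine-free and 98.3% in Cth-/- cystine-free. Without thinning the heat shock share was 97.5% in Cth+/+ control and 98.8% in Cth+/+ cystine-free. With at least 5 capillary UMIs the thinned share was 98.2% for interferon response genes in Cth+/+ control and 93.0% for interferon response genes in Cth-/- cystine-free. With a limit of 20% the thinned share was 17.7% for tip cell genes in Cth+/+ cystine-free and 20.3% for arterial genes in Cth+/+ cystine-free. With doublet calls left out the thinned share was 98.8% for heat shock genes in Cth-/- cystine-free.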

Other observations

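Some lists had no place in the report. Of genes of shear response and vascular tone, 1 of 12 was at least 1.5-fold higher and 1 lower with the diet in Cth-/- (5.19% and 8.81% of all genes). On the cystine-free diet 3 of 14 stood higher and 5 lower in Cth-/- than in Cth+/+ (median -0.25), against 12% and 12.5% of all genes. Edn1, the constrictor peptide endothelin, stood at 33.8, 47.9, 40.9 and 72.0 CPM and was highest in Cth-/- cystine-free. Ace, the angiotensin-converting enzyme, stood at 58.9, 56.5, 57.0 and 36.9 CPM, lowest in that library. Adm, the dilator peptide adrenomedullin, stood at 34.9, 55.1, 39.8 and 30.6 CPM and was highest in Cth+/+ cystine-free, like the tip cell genes, among which it is also listed.

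Of hypoxia and glycolysis genes 1 of 14 was higher, Bnip3 (24.3, 23.3, 36.6 and 92.97 CPM), and 1 lower with the diet in Cth-/-. ER chaperones had 0 of 13 apart there. Of 10 p53 targets 2 were higher and 1 lower with the diet in Cth-/-, led by Cdkn1a, and Ccng1 stood at 20.1, 23.5, 37.6 and 24.7 CPM. Over all genes 5.19% were higher and 8.81% lower with the diet in Cth-/-. The shares of these lists, with 1 library per group, were not tested.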
